A study of Mus musculus with 32 samples.

Results

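The genes of the proteasome were followed through poly(A) RNA sequencing of mouse liver, duodenum, jejunum and ileum. They were taken as the protein-coding genes whose symbol begins with Psma to Psmg and a digit. In GENCODE M21, 50 genes fit that rule, of which 1, Psmc3ip, fits by name but is no subunit. Of the 50, 42 are in at least 1 of the 4 deposited organ tables, out of 10055 genes in at least 1 table. The remaining 8 (Psma8, Psmb11, Psmc3ip, Psmc6, Psmd1, Psmd11, Psmd2 and Psme3) are in no table and were not analysed here.

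The study asked how fructose and ketohexokinase bear on the handling of iron. It set male mice lacking ketohexokinase (Khk), the enzyme that commits fructose to metabolism, against male wild-type (WT) mice. Each organ and genotype has 4 libraries, which gives 8 groups and 32 libraries. Strain, age, diet, the Khk allele and whether it is absent in all cells are not given in the sources used here, and the labels do not say whether 1 mouse gave all 4 organs. Nothing in the labels names separate animals for the 4 libraries of a group, so p-values measure the spread between these libraries.

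A proteasome is a barrel of alpha and beta rings, with the proteolytic sites on 3 of the beta subunits, closed by regulatory caps that bind, unfold and admit ubiquitin-tagged proteins. In cells exposed to interferon, 3 other beta subunits replace the constitutive catalytic ones and form the immunoproteasome, which favours peptides for MHC class I. The subunits are made together: when proteasome activity falls short, the transcription factor NRF1 (Nfe2l1) acts through antioxidant response elements in subunit promoters, whereas the immunoproteasome genes answer to interferon, in part through IRF1. Liver and small intestine both rely on the particle for turnover of short-lived and damaged proteins, and the intestine keeps many immune cells.

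Promoter windows of 4 members whose values carry the results below were read for the elements named above. Psmb5 and Psmb6 encode constitutive catalytic subunits, Psmb8 an immunoproteasome subunit and Psme4 the activator PA200, the 1 member higher in Khk KO. RefSeq windows (GRCm38.p6, 250 bases before to 50 after the start, 5′ to 3′) are given with capitals on matches, on either strand, to TGACNNNGC (the antioxidant response element), TTCNNNGAA (the gamma-activated site) and GAAA, any 2 bases, GAAA (the interferon-stimulated response element). The windows lie at chr14:54617946-54618245 on the minus strand for Psmb5, and on the plus strand at chr11:70525107-70525406 for Psmb6, chr17:34197945-34198244 for Psmb8 and chr11:30771525-30771824 for Psme4.
Psmb5: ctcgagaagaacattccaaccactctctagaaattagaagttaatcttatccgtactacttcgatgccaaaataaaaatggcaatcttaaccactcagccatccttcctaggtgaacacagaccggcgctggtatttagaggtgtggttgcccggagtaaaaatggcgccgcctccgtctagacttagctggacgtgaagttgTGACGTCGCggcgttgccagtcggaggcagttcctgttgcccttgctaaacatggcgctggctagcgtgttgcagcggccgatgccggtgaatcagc
Psmb6: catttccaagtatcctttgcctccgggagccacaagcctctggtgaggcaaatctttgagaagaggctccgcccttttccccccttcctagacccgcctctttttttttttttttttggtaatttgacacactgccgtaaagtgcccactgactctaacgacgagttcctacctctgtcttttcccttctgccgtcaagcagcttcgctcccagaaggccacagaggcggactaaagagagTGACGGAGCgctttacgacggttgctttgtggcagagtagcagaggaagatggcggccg
Psmb8: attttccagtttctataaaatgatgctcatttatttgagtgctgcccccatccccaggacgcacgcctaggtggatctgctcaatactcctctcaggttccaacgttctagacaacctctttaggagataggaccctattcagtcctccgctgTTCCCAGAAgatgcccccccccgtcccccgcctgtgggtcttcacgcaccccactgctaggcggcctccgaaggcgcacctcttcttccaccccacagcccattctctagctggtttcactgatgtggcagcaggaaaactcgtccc
Psme4: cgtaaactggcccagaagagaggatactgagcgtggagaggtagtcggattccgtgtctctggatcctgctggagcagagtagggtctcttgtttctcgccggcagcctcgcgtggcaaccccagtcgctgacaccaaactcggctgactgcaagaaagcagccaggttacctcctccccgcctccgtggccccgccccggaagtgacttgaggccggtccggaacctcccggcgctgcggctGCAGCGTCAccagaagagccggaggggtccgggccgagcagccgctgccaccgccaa
In Psmb5, Psmb6 and Psme4 the capitals are the antioxidant response element, in Psme4 in the reverse direction and across the start. In Psmb8 they are the gamma-activated site. A window was at hand for 35 of the 42 members. A member was counted where any of its windows matched, whereas the share of all windows counts each window singly, and some genes have several. TGACNNNGC was in 5 of the 35 (Psmb5, Psmb6, Psmd12, Psmd9 and Psme4), and in 12.4% of the 32851 windows of all genes. The interferon-stimulated response element was in 5 of the 35 (Psmb3, Psmd4, Psmd9, Psme1 and Psmg4), and in 3.44% of all windows. TTCNNNGAA was in 2 of the 35 (Psmb8 and Psmg1), and in 8.30% of all windows. The letters are a description of these windows and not of binding.

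Total reads per library, read back from the deposited counts, lengths and FPKM, ran from 9821512 to 29475414, and single members had between 55 and 5555 reads in a library. Khk itself had 11.1% of its WT level in Khk KO liver and 4.59% (duodenum), 6.65% (ileum) and 9.25% (jejunum) in the gut, with no overlap between genotypes. Fold change followed gene length across each table: Pearson's r between log2 gene length and log2 fold change, across protein-coding genes, which are not independent replicates, was 0.76 in liver and 0.74 in ileum, against 0.68 in jejunum and 0.55 in duodenum. Short genes were lower and long genes higher in the libraries labelled Khk KO. Among the WT libraries, liver replicates 1 and 3 and replicate 1 of each gut segment stood apart, as given by member below.

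The subunit genes were lower in Khk KO than in WT in liver and ileum, nearly all in 1 direction. Their median log2 fold change was -0.61 in liver, where genes of like length in the same table had -0.59. In ileum it was -0.48, where these had -0.49. A gene is in a table where the authors' own test gave it an unadjusted p under 0.05. The liver table holds 41 members, 40 of them lower in Khk KO, where 34.9% of all tested genes are in the table and 16.1% are in it as lower. The ileum table holds 25 members, 24 of them lower, against 29.6% of all tested genes in the table and 15.1% in it as lower. The jejunum table holds 17 (16 lower), against 16.7% and 8.33%, and the table of duodenum holds 3 (all lower), against 9.16% and 5.39%. Psmb5 alone is in all 4 tables, and another 15 members are in 3.

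Refitted with edgeR's quasi-likelihood test on the deposited counts, with Benjamini-Hochberg adjustment over all genes the authors tested, 23 of the 41 members in the liver table fell and 0 rose, where 15.4% of all tested genes passed, 8.09% as lower and 7.31% as higher. As the members counted here are those already in the table, the like share is that of the table's 6375 genes: 44% passed, 23.1% as lower, against 56.1% of the members. In ileum 8 of 25 fell and 1, Psme4, rose, where 9.89% of all tested genes passed, 3.37% as lower and 6.52% as higher. Of the 5187 genes in the table of ileum, 30.6% passed, 10.4% as lower, against 36% and 32% of the members. No member passed in duodenum or jejunum, where 0.0064% and 0.0101% of all tested genes passed. There 2 of 3 and 17 of 17 had an unadjusted edgeR quasi-likelihood p under 0.05, which the selection of the tables on p largely fixes in advance. DESeq2 gave 0 members in duodenum and 4 in jejunum (Psma6, Psma7, Psmd8 and Psmd9). In the authors' deposited table, 31 members were lower and 1 higher at an adjusted p under 0.05 in liver (background 11.4% lower and 12.5% higher), and 14 lower and 1 higher in ileum (6.86% and 8.76%). The number that passed depended on single libraries. The share of all genes that passed without each library, or with DESeq2, is not reported here. These swings are thus not shown to be particular to the members. In liver it was 36 without WT replicate 1, 21 without WT replicate 3, 2 without WT replicate 2 or Khk KO replicate 3, 1 without WT replicate 4 and 0 without any other Khk KO replicate. In ileum it was 13 without WT replicate 1, 15 without WT replicate 4, 1 without WT replicate 3 and 0 without any of the other 5 libraries. The median log2 fold change over the liver members stayed between -0.73 and -0.48 in these refits, and that over the ileum members between -0.58 and -0.35.

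**Figure D1:**
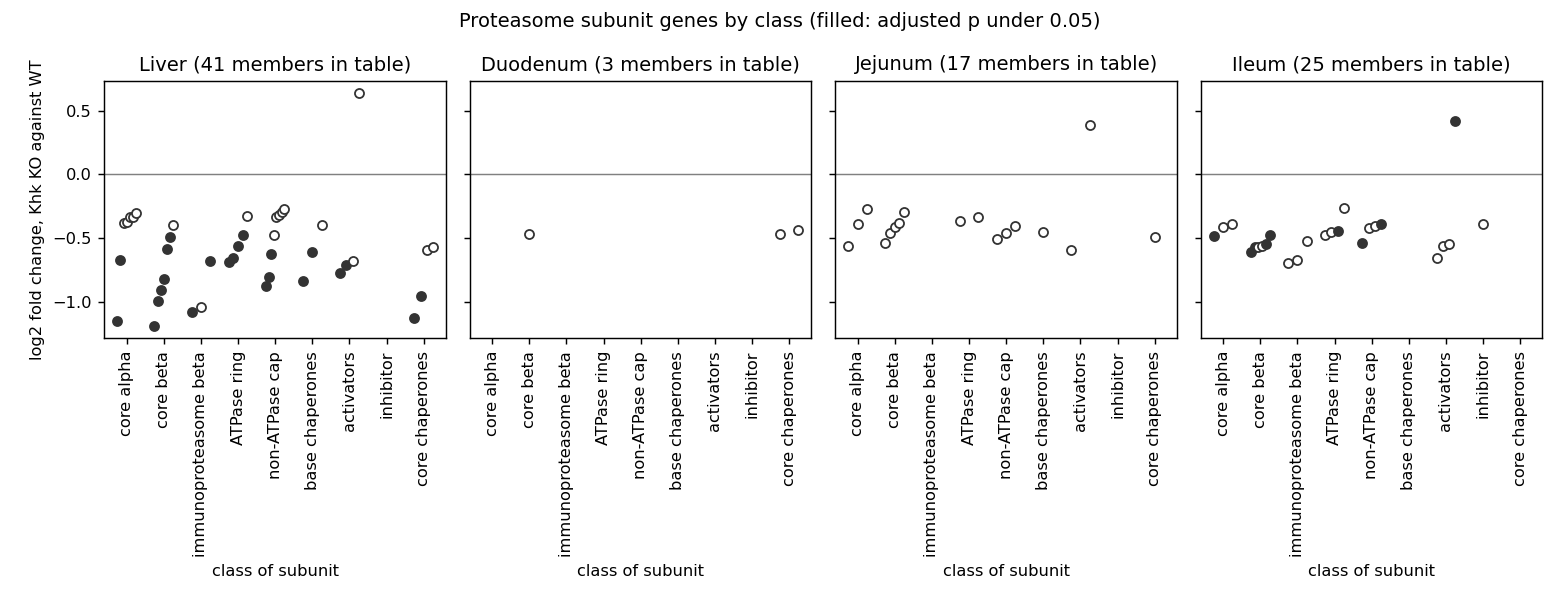
Log2 fold change of Khk KO against WT for every member in an organ's table (y axis), by class of subunit (x axis), 1 panel per organ and 1 point per gene; filled points have an adjusted p under 0.05 by edgeR's quasi-likelihood test. All points lie below 0 except Psme4, at 0.64 in liver, 0.39 in jejunum and 0.42 in ileum.

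In liver 6 of the 7 constitutive beta genes of the barrel fell, with a median log2 fold change of -0.82 over the 7, where 23.1% of the table's genes passed as lower. Of the 7 alpha genes 2 fell, with a median of -0.37. The difference between the classes was not tested. The beta genes are shorter (median 1951 against 2952 bases), and with the length trend taken out 2 beta genes and 0 alpha genes passed by the edgeR quasi-likelihood test. Of the genes in the liver table, 12.3% passed after that step, 6.1% as lower. Psmb5, the chymotrypsin-like catalytic subunit (chr14:54614119-54618022, minus strand), had 1265, 1866, 2636 and 1776 normalised counts in WT replicates 1 to 4 and 832, 768, 849.6 and 850.4 in Khk KO replicates 1 to 4. The genotypes did not overlap, and the Khk KO libraries lay within a narrow band while WT replicate 3 was above every other library. Its Khk KO mean was 43.7% of WT, a log2 fold change of -1.19 ± 0.20 (SE; n = 4 per genotype; edgeR quasi-likelihood adjusted p = 0.0151).

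Psmb6, the caspase-like catalytic subunit, had 1768, 2268, 3822 and 2245 in WT and 1312, 1235, 1339 and 1178 in Khk KO liver. The highest value was again that of WT replicate 3, and no Khk KO library reached any WT library; the log2 fold change was -1.0 ± 0.21 (edgeR quasi-likelihood adjusted p = 0.019). Psmb7, the trypsin-like subunit, had 1493, 1320.0, 1446 and 1328 in WT and 923, 966, 1085 and 996 in Khk KO. Here the WT libraries were close together and replicate 3 was not the highest, and the log2 fold change of -0.49 ± 0.13 was the smallest of the 3 catalytic genes (edgeR quasi-likelihood adjusted p = 0.0277). Among the beta subunits without a proteolytic site, Psmb4 stood at 53.4% of WT, Psmb3 at 56.6% and Psmb1 at 66.5%, and all 3 fell. Psmb4 had 1818, 2643, 4200.4 and 2733 in WT and 1450.3, 1448, 1691 and 1495 in Khk KO. Psmb1 had 2017, 2312, 3261 and 2483 in WT and 1647, 1605, 1659 and 1786 in Khk KO, and neither overlapped. Psmb2, with 822, 981, 1324 and 1137 in WT and 783, 804, 823 and 824 in Khk KO, did not pass, and its Khk KO libraries reached WT replicate 1.

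The alpha ring forms the gate of the barrel. Psma7 had 1351, 2166, 4067 and 2097 normalised counts in WT liver and 1140.5, 1004, 1078 and 1133 in Khk KO liver. WT replicate 3 stood far above the other 3, so the WT spread was wide (2420.2 ± 1158, SD, n = 4), but the genotypes did not overlap. The log2 fold change was -1.15 ± 0.27 (edgeR quasi-likelihood adjusted p = 0.0221). Psma6 had 1295, 1673, 2347 and 1850.5 in WT and 1064, 1056, 1188 and 1195 in Khk KO, again without overlap, and fell by a log2 fold change of -0.67 ± 0.18 (edgeR quasi-likelihood adjusted p = 0.0297). Psma4 had 1733, 1886, 2386 and 1896 in WT and 1646, 1527, 1601 and 1501 in Khk KO. It is 1 of 5 further alpha genes that stood between 76.8% (Psma1) and 81.1% (Psma2) of WT without passing. In all 5 the highest Khk KO library was below the lowest WT library.

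**Figure D2:**
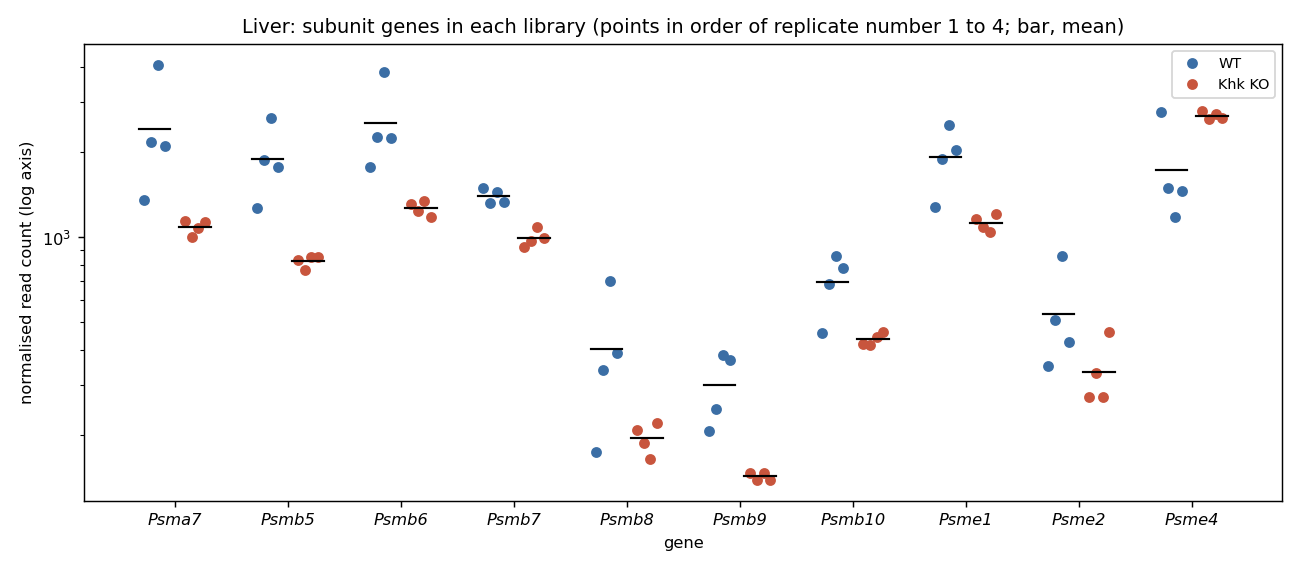
Normalised read counts in liver (y axis, log scale) of 10 members (x axis) in each of the 4 WT and 4 Khk KO libraries, with the group mean as a bar. Psmb5, Psmb6, Psmb7, Psmb9, Psma7 and Psme1 do not overlap between genotypes, and Psme4 is the 1 gene whose Khk KO mean lies above WT.

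The immunoproteasome genes had the lowest median log2 fold change of any class in liver, -1.04 over 3 genes; with the length trend taken out it was -0.52, and that of the 3 base chaperones, at -0.99, was lower. Psmb9 (chr17:34181988-34187764, minus strand, next to the peptide transporter gene Tap1) had 206, 247, 384 and 367 normalised counts in WT and 147, 139, 146 and 139 in Khk KO. No Khk KO library reached WT, and the 4 differed by a few counts; the gene fell by a log2 fold change of -1.08 ± 0.22 (edgeR quasi-likelihood adjusted p = 0.0178). Psmb10 had 459.7, 683, 857 and 779 in WT and 420.1, 415, 444 and 461 in Khk KO, with 1 Khk KO library just above WT replicate 1, and fell by -0.68 ± 0.19 as a log2 fold change (edgeR quasi-likelihood adjusted p = 0.0357). Psmb8 (chr17:34197721-34201454, plus strand) had 174, 339.7, 699 and 391 in WT and 208, 188, 164 and 219.9 in Khk KO. WT replicate 1 lay among the Khk KO libraries and WT replicate 3 far above them, and the log2 fold change of -1.04 ± 0.33 had an edgeR quasi-likelihood adjusted p of 0.0547.

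Some immune-cell markers were also lower in Khk KO liver. Of 12 leukocyte markers, 5 were in the table, all lower, and 2 fell (Coro1a and Lyz2); their summed level was 1019 to 3042 normalised counts in WT and 739 to 974 in Khk KO libraries. The other 7, among them the pan-leukocyte gene Ptprc, were not in the table. All 5 MHC class II markers were lower and 4 fell, with sums of 1981 to 4365 in WT and 1757 to 2008 in Khk KO. Of 12 interferon response genes 6 were in the table, all lower, and 3 fell, Bst2 and Isg15 among them. Of all genes in that table, 23.1% passed as lower. With the length trend taken out 0 leukocyte, 1 MHC class II (Ciita) and 1 interferon response gene passed, where 6.1% of the genes in the liver table passed as lower. The medians of those in the table went from -1.25 to -0.63, from -1.21 to -0.45 and from -0.82 to -0.31. The part of these markers in the immunoproteasome result was not tested, and in bulk tissue fewer cells of a type and less RNA per cell cannot be told apart.

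The ATPase ring at the base of the cap unfolds substrates. In liver 5 of its 6 genes were in the table, all lower without overlap, and 4 fell. Of all genes in the liver table, 23.1% passed as lower and 65% did not overlap between genotypes, for these and the cap genes below. Psmc5 had 1121, 1349, 1789 and 1193 normalised counts in WT and 819, 872, 809 and 890.3 in Khk KO, a log2 fold change of -0.69 ± 0.16 (edgeR quasi-likelihood adjusted p = 0.0229). Psmc3 had 1680.0, 2269, 2746 and 2245 in WT and 1464, 1441, 1443 and 1319 in Khk KO, in both genes with WT replicate 3 the highest. Psmc3 stood at 63.4% of WT, Psmc4 at 67.6% and Psmc1 at 71.8%, each past the threshold, and Psmc2, at 79.9%, was not. Of the 11 non-ATPase cap genes 8 were in the liver table, all lower without overlap, and 3 fell: the ubiquitin receptor Psmd4 (57.2% of WT), Psmd8 (64.9%) and Psmd13 (54.5%). Psmd4 had 1416, 2119, 3057 and 1836 in WT and 1178, 1183, 1297 and 1164 in Khk KO, with WT replicate 3 the highest and WT replicate 1 the lowest WT library. Psmd8 had 1792, 2304, 2994 and 2192 in WT and 1398, 1573, 1493 and 1557 in Khk KO, and Psmd13 993, 1527, 2201 and 1373 and 753, 789, 909 and 870.4, in the same order of WT libraries at both ends. The deubiquitinase Psmd14, which frees the ubiquitin chain, stood at 72% of WT (edgeR quasi-likelihood adjusted p = 0.0517).

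Assembly of the particle needs chaperones that are not part of it when finished. All 3 base chaperone genes and all 4 core chaperone genes were in the liver table, all lower without overlap. Psmd9 and Psmd10 fell, as did Psmg3 and Psmg4. Of all genes in the liver table, 65% did not overlap and 23.1% passed as lower. Psmg3 had 104, 142, 217 and 149.9 normalised counts in WT and 76.7, 55.2, 69 and 79.9 in Khk KO, among the lowest counts of any member, with a log2 fold change of -1.13 ± 0.25 (edgeR quasi-likelihood adjusted p = 0.0205). Psmg2, which pairs with Psmg1 to build the alpha ring, had 204, 238, 293 and 246 in WT and 183, 175, 132 and 171 in Khk KO (edgeR quasi-likelihood adjusted p = 0.0539). Psmb5 shares 12.1% of its exon bases with another gene on the same strand (the microRNA gene Mir686), Psmg3 9.68% and Psme2b 4.9%. With a gene on the opposite strand Psmd9 shares 25.5%, Psmb8 14.7%, Psmb7 11.8%, Psmd13 10.1%, Psmc3 8.25%, Psmb9 5.79%, Psma4 4.81%, Psma5 4.54%, Psme1 0.634% and Psmd3 0.342%, and the strand setting of the counting is not given in the sources used here, so reads of these members cannot be told from their neighbours' there.

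The activators can cap the barrel in place of the ATPase particle. Psme1, the PA28 alpha subunit, had 1279, 1882, 2498 and 2034 normalised counts in WT and 1162, 1083, 1045 and 1207 in Khk KO liver, without overlap, and fell by a log2 fold change of -0.78 ± 0.19 (edgeR quasi-likelihood adjusted p = 0.0234). Psme2, the PA28 beta subunit, had 351, 509, 858 and 426 in WT and 271, 331, 273 and 463 in Khk KO. Khk KO replicate 4 lay within the WT range, and the log2 fold change of -0.68 ± 0.28 did not pass (edgeR quasi-likelihood adjusted p = 0.123). Psme2b, a retrogene copy of Psme2 whose reads could have been assigned to either gene, had 393, 553, 586 and 550.4 in WT and 367, 278, 409 and 219.9 in Khk KO (edgeR quasi-likelihood adjusted p = 0.0451).

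Psme4, which encodes PA200 (chr11:30771726-30880361, plus strand), was the exception in every table that held it. It is also the longest member at 8382 bases. In liver it had 2777, 1496, 1176 and 1461 normalised counts in WT and 2794, 2624, 2714 and 2630.2 in Khk KO. WT replicate 1 was at the Khk KO level and the other 3 WT libraries were well below it, so the mean of 156% of WT came with overlap and a log2 fold change of 0.64 ± 0.23 (edgeR quasi-likelihood adjusted p = 0.0817; 0.0288 in the authors' deposited table). In ileum it had 1663, 1298, 1561 and 1522 in WT and 2035, 1918, 2085 and 2035 in Khk KO, without overlap, and rose by a log2 fold change of 0.42 ± 0.11 (edgeR quasi-likelihood adjusted p = 0.0377). In jejunum it had 919, 1310.3, 1172 and 1193 in WT and 1449, 1395, 1412 and 1745 in Khk KO, again without overlap, but did not pass (edgeR quasi-likelihood adjusted p = 0.256).

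In ileum 4 of the 7 constitutive beta genes fell (Psmb1, Psmb2, Psmb3 and Psmb4), with Psma7, Psmc4, Psmd3 and Psmd4, and Khk KO means between 65.6% (Psmb4) and 76.5% (Psmd3) of WT. Of all genes in the ileum table, 10.4% passed as lower. Psmb4 had 4131, 2967, 2735 and 2414 normalised counts in WT and 1877, 2182, 2034 and 1943 in Khk KO, a log2 fold change of -0.61 ± 0.16 (edgeR quasi-likelihood adjusted p = 0.0414). Psmb2 had 2052, 1727, 1458 and 1494 in WT and 1133, 1177, 1283 and 1019 in Khk KO, a log2 fold change of -0.55 ± 0.13 (edgeR quasi-likelihood adjusted p = 0.0329). WT replicate 1 was the highest library for both, and the genotypes did not overlap. Psmb5 had 1929, 1126, 979 and 902 in WT and 752, 809.8, 891 and 894 in Khk KO; its lowest WT and highest Khk KO library differed by a few counts, and it did not pass (log2 fold change -0.56 ± 0.22, edgeR quasi-likelihood adjusted p = 0.113).

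The largest negative fold changes in ileum were those of interferon-inducible members, and none of them passed. Psmb8 had 3127, 3371, 2083 and 2400.4 normalised counts in WT and 1952, 1847, 2051 and 918 in Khk KO (log2 fold change -0.70 ± 0.24, edgeR quasi-likelihood adjusted p = 0.0868; 0.0373 in the authors' deposited table). Psmb9 had 2433, 2909, 1653 and 2047 in WT and 1728, 1531, 1691 and 721 in Khk KO (log2 fold change -0.67 ± 0.26, edgeR quasi-likelihood adjusted p = 0.113). Khk KO replicate 4 was the lowest library for both genes, and for Psmb9 Khk KO replicates 1 and 3 exceeded WT replicate 3. Psme2 had 3992, 3721, 2451 and 2624 in WT and 2417, 2264, 1919.5 and 1529 in Khk KO, without overlap but with WT replicate 3 close to Khk KO replicate 1 (log2 fold change -0.65 ± 0.19, edgeR quasi-likelihood adjusted p = 0.0574). Psmb10 had 6201, 4703, 3342 and 3194 in WT and 3234, 3029, 3478 and 2420.4 in Khk KO, with overlap, and stood at 69.7% of WT. Psme1 had 5499.9, 4299, 3472 and 3465 in WT and 2909, 2999, 3192 and 2367 in Khk KO, without overlap, and stood at 68.5%. Of the leukocyte markers 3 of 12 were in the ileum table (Cd3e, Coro1a and Nkg7), all lower and 0 past the threshold, with sums of 1033 to 2987 in WT and 483 to 1379 in Khk KO libraries; their part in these values was not tested. Of the 5 MHC class II markers 4 were in the ileum table, with sums of 93911 to 115364 in WT and 40324 to 84288 in Khk KO libraries, and 1 fell, and of the 12 interferon response genes 1 (Irf7) was in it and did not pass. With the length trend taken out 0 genes of these 3 lists passed in ileum by the edgeR quasi-likelihood test. Psmf1, the inhibitor PI31, was in the ileum table only, at 76.5% of WT (edgeR quasi-likelihood adjusted p = 0.0572).

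Among the other ileal members of the barrel, Psma7 had 2967, 2208, 2173 and 2022 normalised counts in WT and 1634, 1682, 1673 and 1728 in Khk KO and fell by a log2 fold change of -0.48 ± 0.13 (edgeR quasi-likelihood adjusted p = 0.0448). Psmb1 had 3541, 2758, 2638 and 2338 in WT and 1978, 1974, 2132 and 2030.1 in Khk KO and just passed (log2 fold change -0.47 ± 0.13, edgeR quasi-likelihood adjusted p = 0.0499). In Psmb6, with 2648, 1737, 1625 and 1514 in WT and 1185, 1372, 1296 and 1215 in Khk KO, the genotypes did not overlap either, but it did not pass (edgeR quasi-likelihood adjusted p = 0.0575). WT replicate 1 was the highest library for all 3. Psma6 had 2367, 1812, 1635 and 1598 in WT and 1442, 1539, 1343 and 1239 in Khk KO, and Psma4 had 3306, 2465, 2025 and 2132 and 2058, 1943, 1824 and 1735. Psma4 overlapped, Psma6 did not, and neither passed.

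Among the ileal cap genes, Psmd4 had 2302, 1647, 1617 and 1595 normalised counts in WT and 1159.9, 1184, 1433 and 1165 in Khk KO and fell by a log2 fold change of -0.54 ± 0.14 (edgeR quasi-likelihood adjusted p = 0.043). Psmd8 had 2852, 2009, 2088 and 1866 in WT and 1666, 1596, 1809.7 and 1505 in Khk KO, and Psmd13 had 2346, 1449, 1407 and 1331 and 1306, 1299.8, 1127 and 1188. In all 3 WT replicate 1 stood clear of the other WT libraries, and Psmd8 and Psmd13 did not pass (edgeR quasi-likelihood adjusted p = 0.0809 and 0.15). The ATPase genes Psmc3, with 3405, 2384, 2441 and 2288 in WT and 1899, 1937, 1970.3 and 1865 in Khk KO, and Psmc5, with 2912, 1851, 1929.6 and 1607 and 1404, 1524, 1561 and 1479, had the same highest library and did not pass (edgeR quasi-likelihood adjusted p = 0.06 and 0.0919). Psme2b, the retrogene copy, had 1899.6, 973, 1018 and 903 in WT and 670.1, 833, 1077 and 666 in Khk KO; Khk KO replicate 3 lay above 3 of the 4 WT libraries.

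In jejunum the members' Khk KO means ran from 66.2% (Psme2b) to 82.7% (Psma4) of WT, besides Psme4 at 131%. Of the 17 members, 15 did not overlap between genotypes, against 56% of all genes in the table. Psma6 had 2522, 1674, 2097 and 1780.5 normalised counts in WT and 1458, 1450.0, 1306 and 1256 in Khk KO, without overlap (log2 fold change -0.56 ± 0.15, edgeR quasi-likelihood adjusted p = 0.252). Psmb5 had 1534, 924, 968 and 889 in WT and 856, 812, 651 and 653 in Khk KO (log2 fold change -0.54 ± 0.20, edgeR quasi-likelihood adjusted p = 0.256), with WT replicate 1 far above the other WT libraries. Psmb6 had 2579, 1639, 1904 and 1681 in WT and 1605, 1459.6, 1294 and 1301 in Khk KO. Psmb4 had 3746, 2533, 2501 and 2218 in WT and 2292, 2096, 2016 and 1868 in Khk KO. WT replicate 1 was again the highest for both, and for Psmb4 Khk KO replicate 1 lay above WT replicate 4. Psmb1 had 2773, 2158, 2263 and 2148 in WT and 1806, 1857, 1747 and 1762 in Khk KO, Psmb2 1181, 1356, 1205 and 1068 and 1007, 993, 1009 and 909.8, Psma4 2291, 2039, 2094 and 2018 and 1807, 1791, 1599 and 1787, and Psma7 2193, 2139, 2152 and 2045 and 1739, 1696, 1552 and 1515. None of these 4 overlapped, and in Psmb2 the highest library was WT replicate 2.

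The jejunal cap genes lay in the same range. Psmd4 had 2156, 1695, 1585 and 1503 normalised counts in WT and 1337, 1319.9, 1277 and 1121 in Khk KO, Psmd8 2325, 1969.8, 1999 and 1857 and 1699.6, 1465, 1484 and 1519, and Psmd13 2300.0, 1540.0, 1635 and 1397 and 1191, 1248, 1109 and 1289. Psmc3 had 2393, 2248, 2049.8 and 1909 in WT and 1874, 1677, 1633 and 1635 in Khk KO, and Psmc5 2261, 1649, 1805 and 1513 and 1504, 1489, 1261 and 1366. In all 5 the genotypes did not overlap and WT replicate 1 was the highest library. Psme2b had 1913, 1321, 1344 and 1122 in WT and 1109, 946, 805 and 912 in Khk KO, without overlap, and the core chaperone Psmg2 214, 178, 248 and 213 and 198, 119, 162 and 127, with overlap.

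In duodenum Psmb5 had 3300.1, 1770.0, 1996 and 1623 normalised counts in WT and 1202, 1909.9, 1635 and 1537 in Khk KO. The genotypes overlapped, with Khk KO replicate 2 above WT replicates 2 and 4 (log2 fold change -0.47 ± 0.24, edgeR quasi-likelihood adjusted p = 1). Psmg1 had 346, 253, 252 and 302 in WT and 195, 214, 214 and 211 in Khk KO, and Psmg2 258, 182, 179 and 188 and 150.0, 140.3, 161 and 144. The core chaperones Psmg1 and Psmg2 stood at 72.4% and 73.8% of WT there, without overlap, and did not pass (edgeR quasi-likelihood adjusted p = 0.838 for both).

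Non-overlap is common among genes already selected on p. In liver 35 of 41 members did not overlap between genotypes, against 65% of all genes in the table, in ileum 21 of 25 against 66.8%, in jejunum 15 of 17 against 56% and in duodenum 2 of 3 against 45.9%.

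Subunit genes are short, and genes of their length in the same table had similar median fold changes. Those genes were also selected on p, and genes of that length outside the tables have no values here. The median deposited gene length was 2607 bases over the liver members and 4728 over the other protein-coding genes of that table, and 36 of the 41 members were shorter than that median. The members' median log2 fold change in liver was -0.61, that of all other protein-coding genes in the table -0.25, and that of the 200 genes nearest in length to each member -0.59. In ileum the 3 values were -0.48, -0.29 and -0.49, in jejunum -0.41, -0.27 and -0.49, and in duodenum, over 3 members, -0.47, -0.33 and -0.55. The members' median thus lay within 0.09 of that of genes of like length in each organ, on the log2 scale.

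**Figure D3:**
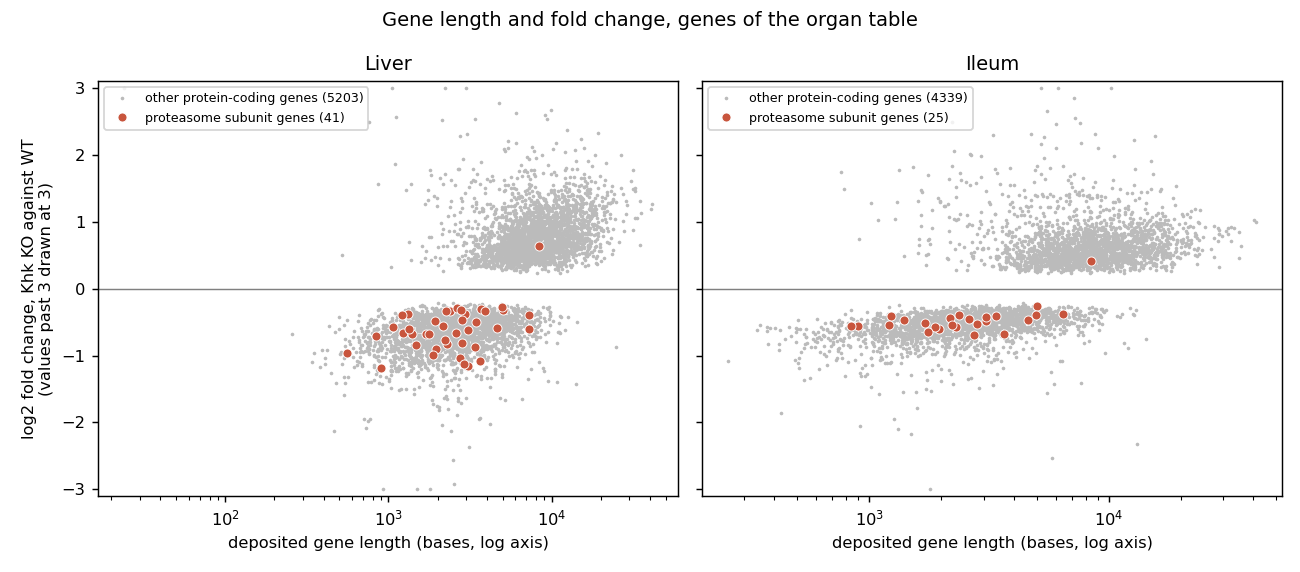
Log2 fold change of Khk KO against WT (y axis) by deposited gene length (x axis, log scale) for protein-coding genes of the liver and ileum tables (grey) and the proteasome subunit genes (red); genes with an unadjusted p of 0.05 or more are not in the tables, which leaves the band around 0 empty. The members lie among the short genes below 0, with Psme4 among the long genes above it.

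The same held library by library. The median deviation of the liver members from their means over the 8 libraries, on the log2 scale, was -0.01, 0.31, 0.66 and 0.29 in WT replicates 1 to 4 and between -0.32 and -0.24 in the Khk KO libraries. For genes of like length it was 0.01, 0.31, 0.54 and 0.27 in WT, and between -0.31 and -0.24 in Khk KO. WT replicate 3 was the highest and WT replicate 1 the lowest WT library by both measures. In ileum the WT libraries had 0.61, 0.19, 0.10 and 0.02 for the members and 0.54, 0.20, 0.13 and 0.00 for genes of like length, with WT replicate 1 the highest by both.

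**Figure D4:**
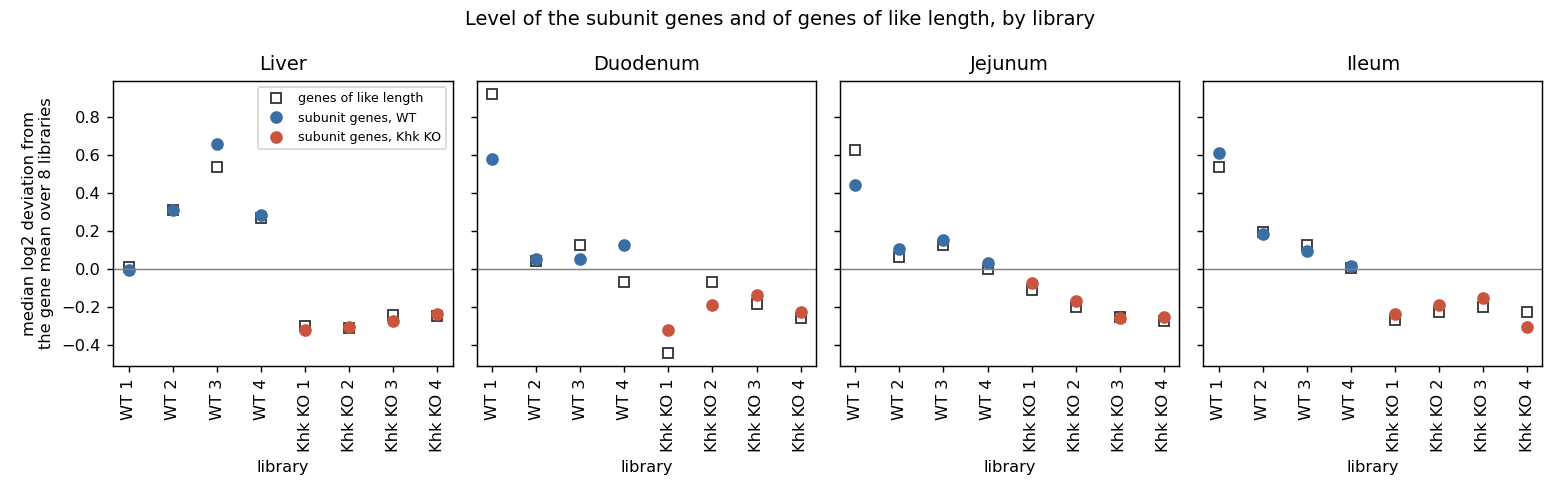
Median log2 deviation from each gene's mean over the 8 libraries of an organ (y axis), for the members in the table (filled circles) and for genes of like length (open squares), in each library (x axis). Circles and squares follow each other in liver and ileum, where the highest libraries are WT replicate 3 at 0.66 and WT replicate 1 at 0.61.

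After the gene length trend was removed from each library, the liver members' median log2 fold change was -0.15, with 27 below 0 and 14 above, and 6 of 41 fell, where 4.31% of all tested genes passed, 2.13% as lower and 2.17% as higher. Of the genes in the table of liver, 12.3% passed, 6.1% as lower, against 14.6% of the members, all as lower. Whether the members' share differs from that of the table was not tested. The 6 members were Psmb5 (-0.43), Psmb9 (-0.84), Psmb1 (-0.63), Psmd3 (-0.41), Psmd5 (-0.99) and Psmd9 (-1.23), with adjusted p between 0.018 and 0.042 by edgeR's quasi-likelihood test. Psmd5 and Psmd9, chaperones of the cap's base, are long for members (7230 and 7248 bases); the 200 genes nearest to them in length had medians of 0.60 and 0.61, while their own log2 fold changes were -0.40 and -0.61. Psme4 had 0.03 in liver and -0.06 in ileum after that step. In ileum the members' median was -0.08, and 4 of 25 fell, where 2.97% of all tested genes passed and 1.52% passed as lower (9.18% and 4.7% of the genes of the table, against 16% of the members): Psmb1 (-0.47), Psmc2 (-0.36), Psmd3 (-0.47) and Psmf1 (-0.71), with adjusted p between 0.0043 and 0.039 by edgeR's quasi-likelihood test. Psmb1 and Psmd3 passed in both organs. No member passed in duodenum, where 0.0128% of all tested genes passed after either length step.

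The deposited length is that of a gene's merged exons, and for several of these members it exceeds the length of their coding transcripts by far: 7248 against 2597 bases for Psmd9, 4967 against 2148 for Psmd3, 4595 against 1758 for Psmb1, but 899 against 760.5 for Psmb5. Removing the trend with the median length of coding transcripts instead, an alternative chosen after seeing the data, 3 liver members passed, Psma2 (-0.41), Psmb5 (-0.43) and Psmd5 (-1.02), and 0 in ileum by the edgeR quasi-likelihood test. In liver 3.69% of all tested genes passed that step, 1.71% as lower and 1.98% as higher; of the table's genes 10.6% passed, against 7.32% of the members. Psmb5 and Psmd5 in liver were the members that passed on both lengths. Removing the trend with GC content, also chosen after seeing the data, left 29 liver members, all lower, past the edgeR quasi-likelihood threshold, where 13.2% of all tested genes passed, 7.69% as lower and 5.55% as higher, and 7 in ileum, all lower, against 5.83%. Of the tables' genes 37.9% passed in liver and 18% in ileum, against 70.7% and 28% of the members.

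The exchange of catalytic subunits was read within each library, where scaling and depth cancel. The gene length trend does not cancel where the genes of a pair differ in length, and no ratio was taken with that trend removed. Its part in these ratios was not tested. In WT liver the Psmb8 count was 0.201 ± 0.0543 of that of Psmb5, the subunit it replaces, and 0.237 ± 0.0295 in Khk KO liver (SD, n = 4; exact permutation test, two-sided p = 0.286). Psmb9 to Psmb6 was 0.122 ± 0.0283 in WT and 0.113 ± 0.00365 in Khk KO liver (exact permutation p = 0.8286), and Psmb10 to Psmb7 0.501 ± 0.133 and 0.439 ± 0.0246 (exact permutation p = 0.6). In ileum Psmb8 to Psmb5 was 2.35 ± 0.604 in WT and 2.05 ± 0.698 in Khk KO (exact permutation p = 0.6), and Psmb9 to Psmb6 1.24 ± 0.343 and 1.12 ± 0.377 (exact permutation p = 0.657). After adjustment over the 5 ratios the exact permutation p-values were 0.821 to 0.8286. No difference of means exceeded the SD of the WT libraries, but in liver each exceeded the narrower SD of the Khk KO libraries. The log2 differences of Khk KO from WT ran from -0.24 (Psmb8 to Psmb5, ileum) to 0.27 (Psmb8 to Psmb5, liver). Without Khk KO replicate 4 both ileal differences change sign, to 0.06 and 0.09, and without WT replicate 4 that of Psmb9 to Psmb6 in liver does, to 0.06.

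The organs differed far more than the genotypes. Psmb8 to Psmb5 was 11.7-fold higher in ileum than in liver in WT and 8.22-fold higher in Khk KO, and Psmb9 to Psmb6 10.04-fold and 9.39-fold higher, in 4 of 4 libraries each (two-sided exact permutation p = 0.0286 in each of the 4 comparisons, also after adjustment over them, the smallest that 4 against 4 can give). Liver and ileum come from separately normalised tables, which does not touch a ratio within a library.

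**Figure D5:**
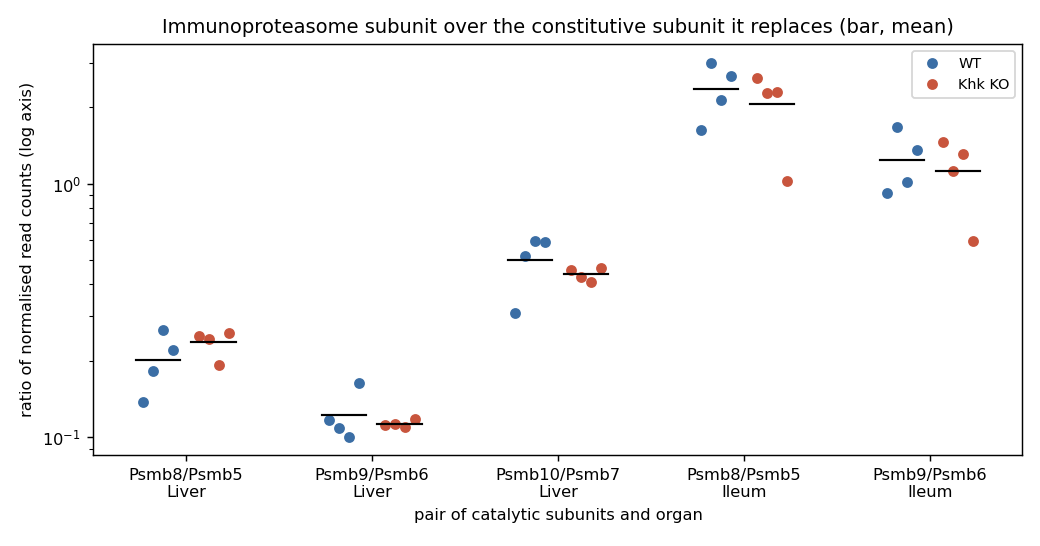
Ratio of the normalised read counts of an immunoproteasome subunit to those of the constitutive subunit it replaces (y axis, log scale) in each WT and Khk KO library, with the group mean as a bar, for 3 pairs in liver and 2 in ileum (x axis). The ileum ratios, with WT means of 2.35 and 1.24, lie about an order of magnitude above the liver ratios of the same pairs, at 0.201 and 0.122, and the genotypes overlap in all 5.

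Whether the genotype effect differed between liver and ileum was tested on the 24 members in both tables, all selected on p in both. The fold change was lower in liver for 20 of the 24, and 0 passed the edgeR quasi-likelihood test of the difference, where 0.529% of the 2834 genes in both tables passed. DESeq2 also gave 0, and by edgeR 1 member, Psma7, had an unadjusted p under 0.05 (difference -0.67 on the log2 scale, unadjusted p = 0.0487, adjusted p = 0.75). Psmb5 followed, with a difference of -0.63 (edgeR quasi-likelihood adjusted p = 0.762). Without liver WT replicate 1, 2 members passed, Psma7 and Psme4. A larger effect in liver was thus not shown for any member with all libraries.

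Levels can be compared between genes only per length. In WT liver the 14 core subunit genes, whose products occupy equal places in the barrel, ran from 27.2 FPKM (Psma2) to 181 FPKM (Psmb5), a 6.66-fold range with a median of 62.8 FPKM. Scaled to coding transcript length in place of deposited length, they ran from 34.3 to 273, a 7.97-fold range, and Psmb5 was not the highest. In Khk KO liver Psmb5 stood at 77.7 ± 3.64 FPKM (SD, n = 4), from 181 ± 56.5 in WT, and Psma6 at 77.2 ± 5.34, from 125 ± 32. By deposited length Psmb5 was thus well above Psma6 in WT and level with it in Khk KO. By coding transcript length Psmb5 was above Psma6 in WT but below it in Khk KO. Psme4 was at 17.6 ± 6.99 FPKM in WT liver and Psmb9 at 7.09 ± 2.14.

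Genes that assemble, feed or regulate the particle were counted from lists. Of 27 cofactors and ubiquitin genes 9 were in the liver table (6 lower, 3 higher), and 3 fell and 1 rose. Of all genes in that table, 23.1% passed as lower and 20.9% as higher. Pomp, which matures the barrel, fell from 1621 ± 228 to 1117 ± 77.4 normalised counts and the polyubiquitin gene Ubb from 6532 ± 1052 to 4338 ± 381, while Uba6, a ubiquitin-activating enzyme, rose from 59.0 ± 31.7 to 159 ± 17.7 (SD, n = 4). In ileum 9 were in the table, and 3 fell, Adrm1 and Ubb among them, and 2 rose (Ecpas and Uba6). Of all genes in the ileum table, 10.4% passed as lower and 20.1% as higher. Ecpas and Uba6 are long genes, and with the length trend taken out Uba6 was at 0.84 in liver and 0.30 in ileum and Ecpas at -0.13 in ileum, none past the threshold. Ubb was then at 0.05 in liver and -0.06 in ileum and did not pass. Of the list's 4 liver calls 1 was left, Pomp, at -0.75 (edgeR quasi-likelihood adjusted p = 0.017), and in ileum 3 genes passed, Pomp (-0.77), Bag6 (-0.63) and Adrm1 (-0.40). After that step 6.1% of the genes in the liver table and 4.7% of those in the ileum table passed as lower.

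Of the 5 transcription factors and processing genes of the subunit programme, Nfe2l1, Nfe2l2 and Ngly1 were in no table. Ddi2, the protease that activates NRF1, was in all 4 tables as higher and rose in ileum by a log2 fold change of 0.52 ± 0.11 (edgeR quasi-likelihood adjusted p = 0.0174), at -0.02 with the length trend taken out. Keap1 was in the ileum table only, as lower, and did not pass (log2 fold change -0.36, edgeR quasi-likelihood adjusted p = 0.0507). Its adjusted p in the authors' deposited table was 0.0338. With the length trend taken out Keap1 was at -0.39 and passed (edgeR quasi-likelihood adjusted p = 0.0381), where 4.7% of the genes in the ileum table passed as lower. Of 12 genes of class I presentation and its interferon control, 9 were in the liver table. Among them Calr, H2-D1, H2-K1 and Tap1 fell, and Erap1 and the class I activator Nlrc5 rose, Nlrc5 from 275 ± 27.0 to 565 ± 25.8 normalised counts. With the length trend taken out Calr (-0.05), H2-D1 (-0.08), H2-K1 (0.05), Erap1 (-0.06) and Nlrc5 (0.34) did not pass. Then 3 genes of the list did by the edgeR quasi-likelihood test, Tap1 (-0.98) among them, and B2m as higher (0.41). Of the genes in the liver table, 6.1% then passed as lower and 6.21% as higher. Tap1 shares 5.79% of the exon bases of Psmb9 on the opposite strand. In ileum 7 were in the table, and 1, Erap1, rose, at 0.01 and not past the threshold with the length trend taken out.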

How the data were processed

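Poly(A) RNA from liver, duodenum, jejunum and ileum was sequenced, with 4 WT and 4 Khk KO libraries per organ. Per the submitters' processing notes, reads were aligned with HISAT2 2.0.5 to GRCm38 (mm10); the counting tool, its strand setting and the test used are not given in the sources used here. Each deposited organ table gives, per the file headers, read counts, normalised values (a signal: the count divided by a size factor), FPKM per deposited gene length, and the authors' log2 fold change, p-value and adjusted p-value. Each table holds only genes with an unadjusted p under 0.05. The liver table holds 6375 genes, 20 of them without an adjusted p, and the authors adjusted over 18225. The ileum table holds 5187 (439 without; adjusted over 16034), that of jejunum 2413 (759; 9881) and that of duodenum 1567 (137; 15615). A share of all tested genes takes the number adjusted over as its base, and a share of the table the genes in it.

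Counts were refitted per organ with edgeR 4.0.16 (quasi-likelihood F test, R 4.3.3), with the size factors read back from the deposited values, filterByExpr, and Benjamini-Hochberg adjustment over the authors' number of genes, at 0.05. The fit was also run on simulated counts, which held no gene length trend and no outlying library, so that run does not bear on either. Neighbours in length were the 200 protein-coding genes of the table nearest in log2 length to each member. Length, coding length and GC trends were taken out per library by lowess (span 0.5) as offsets. Alternatives were TMM, no filter, DESeq2 1.42.0, a replicate block and leaving out each library. Ratios of catalytic subunits were tested by exact permutation, a test added after seeing the data. The lowest chi-square per degree of freedom between 2 replicates was 11.2, so no library was taken as deposited again.

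The members and lists were chosen with earlier results of these data known. Some list genes are counted but not reported here by name. Values per library are given for the catalytic, immunoproteasome and PA28 genes, for the 3 members with the highest and the 3 with the lowest fold change in an organ (mean normalised count 100 or more), and for members in 3 or more tables. Of 7 hepatocyte markers 5 were in the liver table (1 rose, 2 fell), 5 in ileum (1 rose, 1 fell), 3 in jejunum and 1 in duodenum. Of 5 enterocyte markers 2 were in the ileum table, 1 in jejunum, 1 in liver and 0 in duodenum. Of 4 duodenal markers 1 was in a table (ileum). Of 5 jejunal markers 2 were in the jejunum table, 2 in liver (both fell), 1 in ileum and 1 in duodenum, and of 3 ileal markers 1 was in the ileum and the jejunum tables. As the tables are selected on p, a marker outside a table is not thereby absent from the organ. In duodenum and jejunum 0 leukocyte, 1 MHC class II (Ciita) and 1 interferon response gene (Irgm1) were in the table. Both were higher in Khk KO, unlike the genes of these lists in the liver and ileum tables. Ciita had a log2 fold change of 0.67 in duodenum and 0.64 in jejunum, and Irgm1 0.54 and 0.85, none past the edgeR threshold. In the authors' deposited table Irgm1 in jejunum had an adjusted p of 0.00774.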

Additional observations from a re-analysis of the deposited data

Results flagged for a closer look

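In 12 of the 124 groups of 4 libraries behind the members' values above, 1 library lay far from the other 3 (its gap to the nearest, as a share of the whole range, passed Dixon's 95% critical value), where chance gives about 1 group in 20. WT replicate 1 of the gut segments accounts for 6 of the 12. In ileum, WT replicate 1 had for Psmc3 3405, against 2288 to 2441 in the other 3 WT libraries, for the cap subunit Psmd13 2346, against 1331 to 1449 in the other 3, for the ubiquitin receptor Psmd4 2302, against 1595 to 1647 in the other 3, and for Psme2b 1899.6, against 903 to 1018 in the other 3. In jejunum it had for Psmb5 1534, against 889 to 968 in the other 3, and in duodenum for Psmg2 258, against 179 to 188 in the other 3. These 6 values are high, and leaving the library out of ileum took the median log2 fold change of the members from -0.48 to -0.35.

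The other 6 are Khk KO libraries. In replicate 3, Psmd4 in ileum was at 1433, against 1159.9 to 1184 in the other 3, Psmd4 in liver at 1297, against 1164 to 1183 in the other 3, and Psma4 in jejunum at 1599, against 1787 to 1807 in the other 3. In jejunum replicate 4, Psmb2 was at 909.8, against 993 to 1009 in the other 3, and Psme4 at 1745, against 1395 to 1449 in the other 3. In liver replicate 4, Psmc3 was at 1319, against 1441 to 1464 in the other 3. All values are normalised counts, and the labels do not say whether libraries of 1 number in different organs share a mouse.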

How the results depend on the processing

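The count of members past the threshold depended on the gene length step, the tool, the block and single libraries. Removing the gene length trend took it from 23 to 6 in liver and from 9 to 4 in ileum. Removing the coding transcript length trend, chosen after seeing the data, left 3 in liver and 0 in ileum; removing that with GC content, also chosen after seeing the data, left 29 and 7. TMM scaling gave 22 in liver and 15 in ileum, DESeq2 32 in liver, 18 in ileum and 4 in jejunum, and no filter on low counts 25 and 9. TMM moved the median log2 fold change of the 3 duodenal members from -0.47 to -0.29. Duodenum stayed at 0 under all alternatives run, and jejunum at 0 under all but DESeq2. Leaving out 1 library gave 0 to 36 in liver, 0 to 15 in ileum, 0 in jejunum and duodenum, and 0 to 2 for the difference between liver and ileum, with fewer residual degrees of freedom in each such fit. The share of all genes that passed is not reported here for TMM, DESeq2, no filter, the replicate block or the fits without 1 library. Those shifts in count are thus not shown to be particular to the members. The cause of the other shifts was not tested.

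WT and Khk KO libraries share replicate numbers, and no general pairing by number was seen. The correlation of same-numbered libraries' deviations ran from -0.27 to 0.31 and exceeded 0.1 in 3 of 16 pairs, and 3 of 16 correlated best with each other. Low correlations over genes of the tables cannot exclude a pairing. A replicate block gave 19 members in liver, 1 in ileum (Psme2), 0 in jejunum and duodenum and 0 for the difference between organs. The replicate block with the length trend taken out gave 3 in liver (Psmb1, Psmd5 and Psmd9) and 1 in ileum (Psmf1).

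The members' median minus that of genes of like length stayed within the spread between libraries with 100 or 400 neighbours and with TMM. Without 1 library its range was -0.039 to 0.029 in ileum and -0.053 to 0.016 in liver, and it was wider in jejunum (-0.027 to 0.083) and duodenum (-0.041 to 0.20). The log2 difference of ileum from liver in Psmb8 to Psmb5 ran from 3.38 to 3.72 in WT and 2.90 to 3.34 in Khk KO without 1 library, and that in Psmb9 to Psmb6 from 3.17 to 3.48 and 3.08 to 3.51, where 3 against 4 allows no exact p under 0.0571. The log2 difference of Khk KO from WT in Psmb8 to Psmb5 ran from 0.10 to 0.41 in liver and -0.41 to 0.061 in ileum, in Psmb9 to Psmb6 from -0.18 to 0.058 and -0.34 to 0.092, and in Psmb10 to Psmb7 in liver from -0.36 to -0.049.

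Over the 62 single-member fold changes and their 992 values under alternatives, 679 kept direction and side of the threshold, 199 no longer passed, 41 newly passed and 73 changed sign, of which 0 passed in the new direction. No sign changed under TMM, without the filter, with DESeq2, with the replicate block alone or without any 1 library. After removal of the gene length trend the sign changed in liver for Psma4 (0.20), Psma6 (0.039), Psmb2 (0.31), Psme2b (0.035), Psmg2 (0.15), in duodenum for Psmb5 (0.032), Psmg2 (0.037), in jejunum for Psma4 (0.13), Psmb2 (0.18), Psmb4 (0.070), Psmb6 (0.018), Psmc3 (0.041), Psmc5 (0.14), and in ileum for Psma4 (0.062), Psma6 (0.15), Psmb10 (0.024), Psmb2 (0.013), Psmb5 (0.083), Psmc5 (0.090), Psme2b (0.088), Psme4 (-0.065). With the replicate block added to that step it changed in liver for Psma4 (0.20), Psma6 (0.042), Psmb2 (0.31), Psmc5 (0.0011), Psme2b (0.0068), Psmg2 (0.14), in duodenum for Psmb5 (0.029), Psmg2 (0.038), in jejunum for Psma4 (0.13), Psmb2 (0.21), Psmb4 (0.070), Psmb6 (0.018), Psmc3 (0.047), Psmc5 (0.15), and in ileum for Psma4 (0.061), Psma6 (0.15), Psmb10 (0.022), Psmb2 (0.014), Psmb5 (0.085), Psmc5 (0.091), Psme2b (0.067), Psme4 (-0.061). On coding transcript length it changed in liver for Psma4 (0.30), Psma6 (0.035), Psmb2 (0.31), Psmb7 (0.11), Psme2 (0.064), Psme4 (-0.15), Psmg2 (0.069), in duodenum for Psmb5 (0.047), in jejunum for Psma4 (0.18), Psma7 (0.058), Psmb2 (0.16), Psmb4 (0.074), Psmb6 (0.050), Psmc3 (0.045), Psmc5 (0.093), Psmd8 (0.0035), Psme4 (-0.077), and in ileum for Psma4 (0.12), Psma6 (0.14), Psma7 (0.045), Psmb2 (0.0064), Psmb5 (0.064), Psmb6 (0.020), Psmc5 (0.016), Psmd13 (0.075), Psmd8 (0.014), Psme1 (0.053), Psme2b (0.044), Psme4 (-0.18). On GC content it changed in ileum for Psme4 (-0.011). Precision was limited by 4 libraries per group and by the selection of the tables: a member at an unadjusted p of 0.05 or more in the authors' test has no value here.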
